A study of Mus musculus with 2 samples.

Results

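Genes that encode lineage-directing transcription factors of lymphocytes were followed in the T and natural killer (NK) cells of mouse pancreatic tumours: Tcf7, Lef1, Tox, Eomes, Tbx21, Foxp3, Gata3, Bcl6 and Zbtb16. They were chosen by symbol, and all 9 were found among the 32285 genes of the deposited tables. The tumours were orthotopic allografts in C57BL/6J mice of KPC cells, a mouse pancreatic cancer line, infected with lentivirus whose hairpin was a control in KPC-shV and targeted Zeb1 in KPC-shZEB1. The labels name no drug, while the study's text describes gemcitabine treatment of both groups. Each group is a single library of dissociated tumour from hosts with their own immune cells, and the study's methods give n = 1 for each.

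Lymphocyte identity is kept by factors that act in pairs and in opposition. TCF-1 (Tcf7) and LEF-1 (Lef1) are HMG-box proteins that mark naive, memory and stem-like T cells. TOX, also an HMG-box protein, is induced by lasting antigen stimulation and is known for exhausted CD8+ T cells. T-bet (Tbx21) and EOMES are T-box factors of type 1 and cytotoxic function, FOXP3 defines regulatory T (Treg) cells, and GATA3 directs type 2 helper cells and group 2 innate lymphoid cells (ILC2). BCL6 is a transcriptional repressor that directs follicular helper T cells and germinal centre B cells. PLZF (Zbtb16) directs innate-like lymphocytes such as NKT, gamma-delta T and ILC precursors.

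Every pair of values below gives the library labelled KPC-shV first. Filtering left 11398 and 12104 cells, which held 101201508 and 118943000 UMIs (unique molecular identifiers, which count captured RNA molecules). T and NK cells were 465 (4.08%) and 1466 (12.1%) of them. Levels are CPM, a gene's UMIs scaled to a fixed total of UMIs in the same cells, with a 95% Poisson interval in parentheses. A ratio divides the second value by the first. With 1 library per group no test was possible, and every interval covers counting error only. Levels of different genes are not compared.

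Zeb1, the targeted gene, was not lower in tumour-like cells of the library named for its hairpin. In these cells it reached 129 CPM from 2591 UMIs and 149.9 CPM from 3163 UMIs. The T and NK cells of the host held 1293 and 1449 CPM of Zeb1. T cell markers summed to 33.1 and 65.1 CPM in tumour-like cells, and the part of host RNA in their Zeb1 was not tested. Unnamed clusters led by Prg4 (496 and 201 cells) and by Ralyl (9 and 229 cells) were not counted as tumour-like. The Zeb1 of these clusters is not given. The libraries shared 46 barcode sequences, 36 of them among kept cells.

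T and NK cells were split into 11 subsets by clustering that left the 9 genes out, and the subsets were named from markers that hold none of them. Cd4 was found in 79.2% and 62.2% of CD4 T-like cells, and Cd8a in 66.3% and 60.7% of CD8 T-like cells. NK-like cells held Ncr1, an activating NK receptor, in 76.0% and 63.1% of cells, while Cd3e was at 3.05 and 6.02 CPM there. A pair of subsets stayed without a name and are called by their leading genes. The St8sia6-led subset had 28 and 148 cells, and the Slc35f3-led subset had 15 and 38. CD8 T-like cells are the effector CD8 T-like cells (72 and 225) and the naive CD8 T-like cells (29 and 167) together.

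RNA of other cell types was present in the T and NK cells and differed between the libraries. All 7 granulocyte markers had UMIs there, with a summed level of 1311 and 574 CPM, and 6 of the 7 were lower by at least 1.5-fold in the library labelled KPC-shZEB1. The 10 monocyte-macrophage markers summed to 841 and 1925 CPM, and 6 were higher. The 6 acinar markers summed to 50.7 and 315 CPM, and 5 were higher. With each factor's level in granulocyte-like cells of the same library subtracted, 65 ratios below stayed within the interval of the main value. Factors other than Bcl6 were low in granulocyte-like cells. The subtraction could therefore move their ratios little, and the count decides nothing about granulocyte RNA. It gave no ratio for Bcl6, of which granulocyte-like cells held more than T and NK cells did. The part of monocyte-macrophage and acinar RNA was not tested. The 8 T cell markers summed to 2938 and 2762 CPM in the same cells, and none passed 1.5-fold.

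Positions are on GRCm38. Tcf7 (chr11:52252371-52283014) and Tbx21 (chr11:97098071-97115331) share chromosome 11, and Eomes (chr9:118478212-118486132) and Zbtb16 (chr9:48654297-48836222) share chromosome 9. The others are Lef1 (chr3:131110471-131224356), Tox (chr4:6686353-6991557), Foxp3 (chrX:7573644-7595245), Gata3 (chr2:9857078-9890034) and Bcl6 (chr16:23965052-23988852). Sequence before a RefSeq transcription start was matched for 7 of the 9 genes. The 250 bases before the start are printed for Lef1, Tbx21 and Foxp3, because of where they were highest among the larger subsets: Lef1 in the St8sia6-led and then the naive CD8 T-like cells, Tbx21 in NK-like cells and Foxp3 in Treg-like cells. Capitals mark each CG dinucleotide, the site of DNA methylation.
Lef1, chr3:131110073-131110322, plus strand: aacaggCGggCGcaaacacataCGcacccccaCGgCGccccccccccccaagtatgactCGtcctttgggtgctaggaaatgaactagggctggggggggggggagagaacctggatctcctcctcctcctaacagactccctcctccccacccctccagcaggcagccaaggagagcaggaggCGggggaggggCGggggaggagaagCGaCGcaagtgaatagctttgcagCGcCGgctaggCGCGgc
Tbx21, chr11:97115332-97115581, minus strand: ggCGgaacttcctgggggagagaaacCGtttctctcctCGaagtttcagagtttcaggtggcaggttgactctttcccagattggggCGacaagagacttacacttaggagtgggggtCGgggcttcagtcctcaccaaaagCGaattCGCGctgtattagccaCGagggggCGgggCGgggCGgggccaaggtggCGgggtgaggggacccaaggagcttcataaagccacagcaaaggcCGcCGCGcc
Foxp3, chrX:7579426-7579675, plus strand: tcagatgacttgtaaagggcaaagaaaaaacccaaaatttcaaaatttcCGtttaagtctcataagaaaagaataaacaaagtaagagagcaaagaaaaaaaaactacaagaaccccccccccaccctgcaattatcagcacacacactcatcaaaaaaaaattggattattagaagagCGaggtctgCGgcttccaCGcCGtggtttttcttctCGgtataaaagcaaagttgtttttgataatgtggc

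The Lef1 and Tbx21 stretches hold 14 and 16 CG dinucleotides, against 6 for Foxp3 and a median of 6 over 32851 RefSeq promoters of the same length. GC content was 66.4%, 60.8% and 37.6%, with a median of 52.4%. The RefSeq start used for Foxp3 lies 6032 bases from the start of the GENCODE gene. Words bound by these protein families were searched on both strands. The TCF and LEF family was searched by the word CTTTGA and by the word CTTTGT. Either was found in 1 of the 7 genes, Foxp3, at bases 77 to 82 on the opposite strand, and in 27.6% of all promoters. The T-box word GGTGTGA lay in 3.33% of all promoters and in 0 of the 7. The word of GATA factors, AGATAA, lay in 9.99% and in 0 of the 7. For forkhead factors GTAAACA was searched, found in 3.17% and in 0 of the 7. For RUNX factors the word TGTGGT was searched, found in 14.0% and in 0 of the 7. A match describes letters only.

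The 9 factors were first compared between the libraries across all T and NK cells. A gene was counted as changed past 1.5-fold in either direction where both libraries together held at least 50 UMIs. None of the 9 factors passed, where 10.0% of the 10910 genes with enough UMIs did. Their median log2 ratio was −0.10, against 0.05 over all those genes. Zbtb16 came nearest, with 163 (149–178) and 110.3 (104–117) CPM and a ratio of 0.677 (0.607–0.755). Gata3 had 129.6 and 108 CPM (ratio 0.836, 0.744–0.942), and Lef1 had 468 and 535 CPM (ratio 1.14, 1.08–1.21). Both Lef1 and Zbtb16 depend on subset make-up: at the same make-up in both libraries the ratios were 0.910 and 0.971. With the granulocyte-like level subtracted, the Zbtb16 ratio was 0.646, just past 1.5-fold.

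The remaining factors were closer still. Tcf7 had 206 and 192 CPM (ratio 0.934, 0.852–1.02), Tox 805 and 742 CPM (ratio 0.922, 0.880–0.965) and Bcl6 140.4 and 136 CPM (ratio 0.972, 0.870–1.09). Tbx21 had 146 and 134 CPM (ratio 0.923, 0.828–1.03), Eomes 34.4 and 39 CPM (ratio 1.13, 0.909–1.42) and Foxp3 22.7 and 23.8 CPM (ratio 1.05, 0.797–1.39). The intervals of these 6 ratios hold 1 except that of Tox. Shares of cells with a UMI also lay close together, from 8.39% and 6.68% for Foxp3 to 68.8% and 70.1% for Tox.

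Within subsets some factors did pass 1.5-fold. In CD4 T-like cells 0 of 6 with enough UMIs passed (14.6% of all genes did), and in CD8 T-like cells 0 of 7 (13.5%). Effector CD8 T-like cells had 2 of 7 lower, Tcf7 and Eomes (13.6%). Naive CD8 T-like cells had 1 of 4 higher, Tox, and 1 lower, Tcf7 (23.1%). NK-like cells had 3 of 8 higher, Gata3, Bcl6 and Zbtb16 (15.6%), and Ly49 T-like cells 1 of 8, Zbtb16 (15.3%). Treg-like cells had 1 of 5 lower, Lef1 (16.5%). IL-17 gamma-delta T-like cells had 2 of 5 lower, Lef1 and Bcl6 (21.8%), and cycling cells 1 of 6 higher, Bcl6, and 1 lower, Lef1 (18.2%). The intervals of these ratios leave out 1 in each case but that of Gata3 in NK-like cells, 1.62 (0.860–3.31). Without the 5 cells with the most Lef1 UMIs the ratio of Lef1 in cycling cells turned around, to 2.78. The percentages are for either direction.

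**Figure D1:**
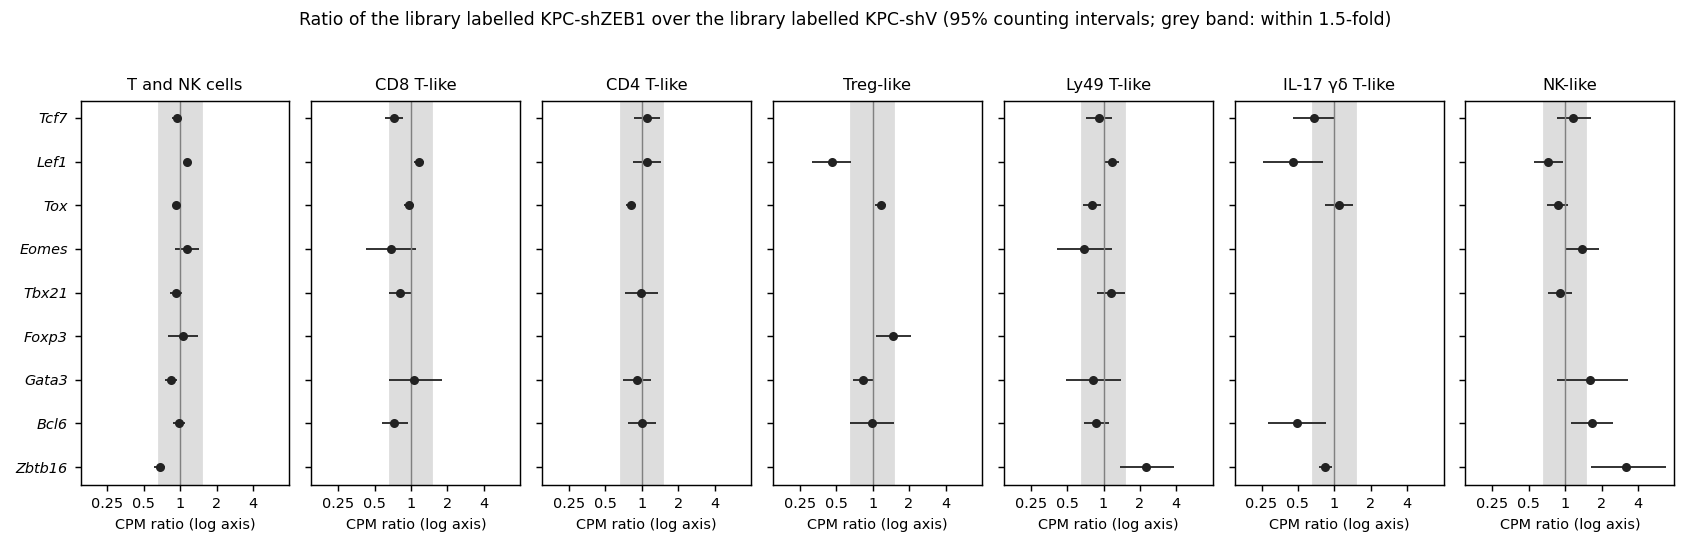
Ratio of each factor, KPC-shZEB1 over KPC-shV (log axis), in all T and NK cells, CD8 T-like cells and 5 subsets, for factors with at least 50 UMIs there. Points are ratios, bars 95% intervals for counting error, and the grey band marks less than 1.5-fold; all 9 factors lie in the band in T and NK cells, and Zbtb16 in NK-like cells (3.16) lies farthest above it.

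The factors differed more between subsets. In both libraries, Tcf7 and Lef1 were highest in the St8sia6-led and naive CD8 T-like cells, Tox in Treg-like cells and Eomes and Tbx21 in NK-like cells. Foxp3 was highest in Treg-like cells, Gata3 in ILC2-like cells, Bcl6 in Ly49 T-like cells and Zbtb16 in IL-17 gamma-delta T-like cells.

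**Figure D2:**
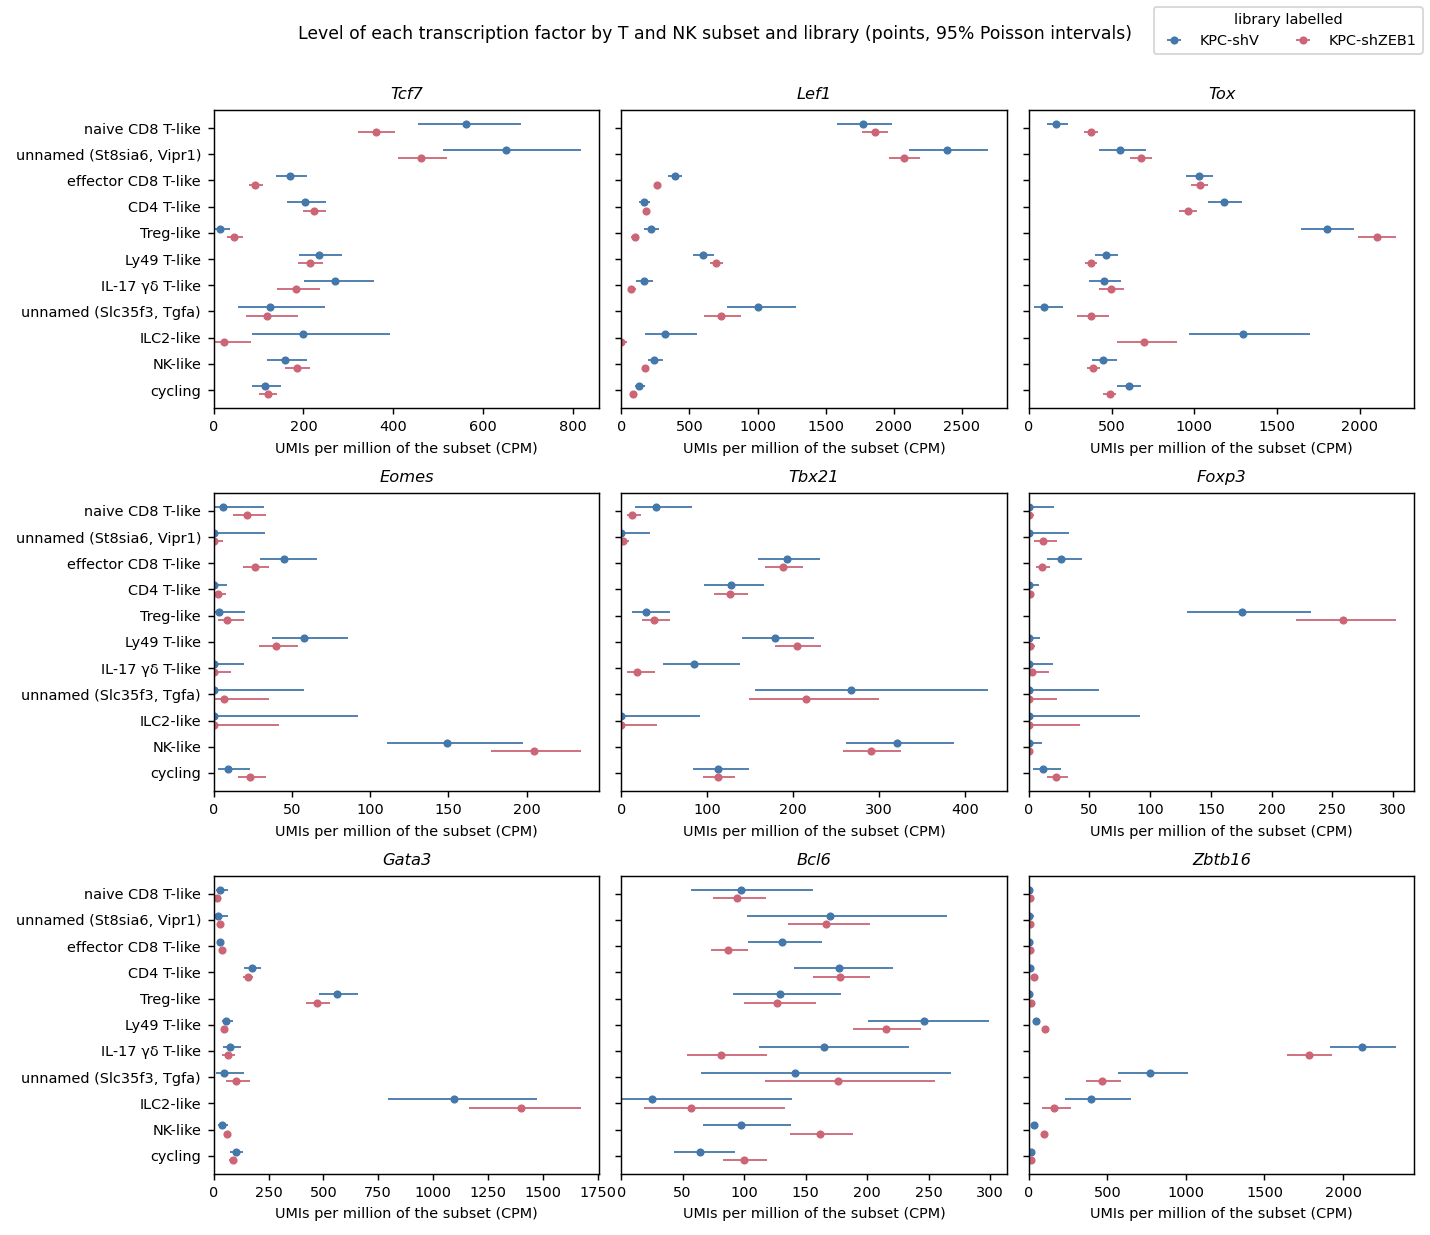
Level of each factor (CPM, horizontal axis, one panel per gene) in each T and NK subset of the library labelled KPC-shV (blue) and the library labelled KPC-shZEB1 (red). Points are levels of the summed UMIs, bars 95% Poisson intervals; each factor peaks in the same subset in both libraries, for example Foxp3 at 176 and 259 CPM in Treg-like cells.

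Tcf7, the gene of TCF-1, was highest in the St8sia6-led cells at 651 (510.4–819) and 463 (411–520.2) CPM. Naive CD8 T-like cells followed with 562 (456–685) and 362 (322–405) CPM, and the intervals of these neighbours overlap in the library labelled KPC-shV but not in the other. At the low end Treg-like cells held 14.4 (3.91–36.8) and 44.5 (29.3–64.7) CPM from 4 and 27 UMIs. The subsets between them, CD4 T-like (204 and 224 CPM), Ly49 T-like (234 and 214 CPM) and NK-like (159 and 186 CPM), had overlapping intervals within each library. IL-17 gamma-delta T-like (271 and 184 CPM), effector CD8 T-like (171 and 92.9 CPM) and cycling cells (115 and 121 CPM) also lay between them, and the effector and cycling cells were below CD4 T-like cells with intervals apart in the library labelled KPC-shZEB1. Cycling cells were below CD4 T-like cells with intervals apart in KPC-shV as well.

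The CD8 T-like cells held less Tcf7 in the library labelled KPC-shZEB1. Their level was 259 (225–298) and 186 (169–204) CPM, a ratio of 0.718 (0.606–0.852), and 64 of 101 cells and 196 of 392 cells had a UMI. In naive CD8 T-like cells the ratio was 0.644 (0.511–0.817) and in effector CD8 T-like cells 0.543 (0.419–0.706), from 171 (139–208) and 92.9 (78.5–109) CPM. Both lie past 1.5-fold, and the intervals of the levels do not overlap between the libraries. The effector difference turned around, to 10.3 and 1.90, when each library was clustered alone and when the 9 genes were kept among the variable genes. Gating T and NK cells on Cd8a or Cd8b1 UMIs, with no clusters, gave 227 and 168 CPM of Tcf7 in 108 and 356 cells. In the same effector CD8 T-like cells the summed granulocyte markers were at 1988 and 468 CPM, and with the granulocyte-like level of Tcf7 subtracted the ratio was 0.525.

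Effector CD8 T-like cells joined a pair of sub-clusters that differ in Tcf7 and Lef1. The one led by Gm156 and Lrrc9 (37 and 134 cells) held 59.4 and 32.1 CPM of Tcf7 and 8.91 and 40.1 CPM of Lef1. The one led by Ifngas1 and Ly6c2 (35 and 91 cells) held 316 and 238 CPM of Tcf7 and 889 and 799 CPM of Lef1. The order is the same in both libraries, and the intervals are apart.

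Lef1, the partner gene of Tcf7, reached 2391 (2113–2695) and 2074 (1962–2192) CPM in the St8sia6-led cells and 1777 (1585–1987) and 1861 (1769.9–1955) CPM in naive CD8 T-like cells. Ly49 T-like cells, which hold killer-lectin receptors and Cd3e, came next among the named subsets at 598 (526–678) and 698 (649–749) CPM. Effector CD8 T-like cells held 392 and 264 CPM, and ILC2-like cells 13 and 0 UMIs in 7 and 19 cells. In the naive CD8 T-like cells, where Tcf7 was lower, the Lef1 ratio was 1.05 (0.926–1.19).

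Lef1 was lower in Treg-like and IL-17 gamma-delta T-like cells. Treg-like cells had 215 (164–277) and 98.9 (75.4–127) CPM, a ratio of 0.459 (0.315–0.668). IL-17 gamma-delta T-like cells had 165 (112–234) and 75.3 (48.7–111) CPM, a ratio of 0.456 (0.258–0.798). The Treg-like ratio was 1.04 with each library clustered alone.

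TCF-1 and LEF-1 are known to work together, and their genes were found in the same CD8 T-like cells. Of CD8 T-like cells with a Tcf7 UMI, 81.2% (69.5–89.9) and 84.7% (78.9–89.4) also had Lef1, against 13.5% (4.54–28.8) and 36.2% (29.5–43.4) of those without. The median depth of the cells with Tcf7 was 6955 and 5396 UMIs, and of those without 7504 and 5859, so depth runs the other way. At 1000 UMIs a cell the shares were 63.2% and 58.0% with Tcf7 and 34.1% and 35.9% without. In NK-like cells the intervals overlap, with 51.9% and 39.5% with Tcf7 against 43.5% and 39.0% without.

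**Figure D3:**
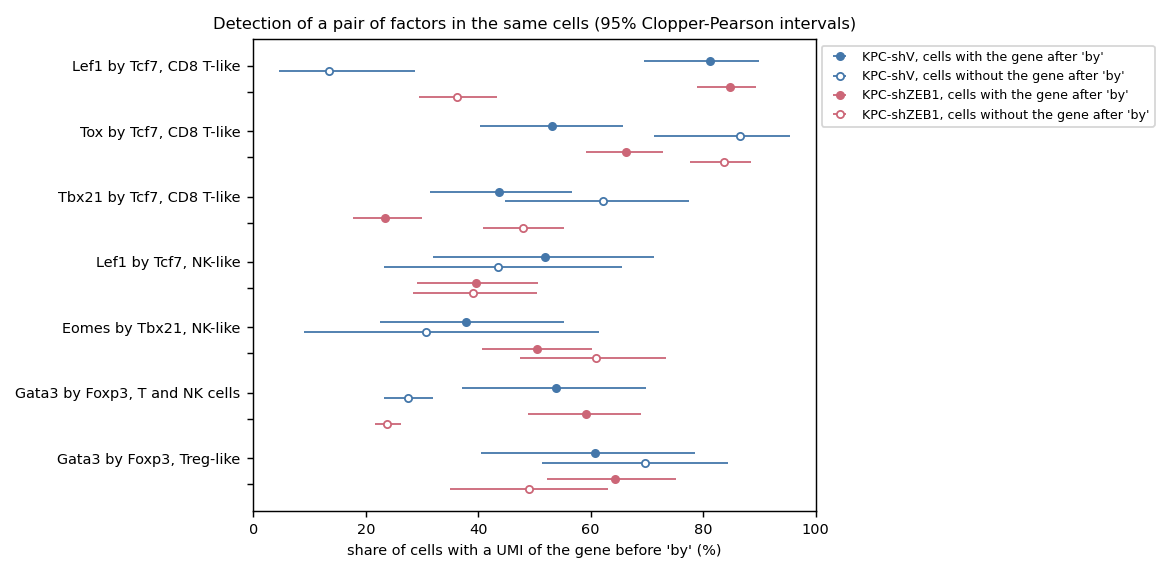
Share of cells (percent, horizontal axis) with a UMI of the gene named before "by" among cells with (filled) and without (open) a UMI of the gene named after "by", in each library and cell class, with 95% Clopper-Pearson intervals. Lef1 by Tcf7 stands apart in CD8 T-like cells (81.2% against 13.5% and 84.7% against 36.2%), and the intervals overlap in NK-like cells.

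Tox was highest in Treg-like cells, at 1799 (1645–1964) and 2101 (1987–2219) CPM, a ratio of 1.17 (1.05–1.30). CD4 T-like cells held 1180.04 (1081–1285) and 959 (907–1014) CPM and effector CD8 T-like cells 1029 (949.5–1114) and 1031 (982–1082) CPM, and in each library these neighbours overlap. Naive CD8 T-like cells were at the low end, with 166 (111–239) and 376 (336–419.6) CPM. That is a ratio of 2.26 (1.54–3.43) from 29 and 318 UMIs, and it was 0.867 with the 9 genes among the variable genes.

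Within subsets Tox set sub-clusters apart. In effector CD8 T-like cells the Gm156-led sub-cluster held 1592 and 1297 CPM and the Ifngas1-led one 300.1 and 397 CPM, the reverse of Tcf7 and Lef1. In CD4 T-like cells the sub-cluster led by Hs6st3 and Dgki held 1721 and 1362 CPM and the one led by Cd40lg and Slamf1 374 and 634 CPM. Tcf7 ran the other way there as well, with 131 and 97.9 CPM and 313 and 326 CPM.

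CD8 T-like cells were then placed by whether they held Tcf7, Tox or both, since TCF-1 marks stem-like cells and TOX chronically stimulated ones. Of 101 and 392 cells, 29.7% (21.0–39.6) and 16.8% (13.3–20.9) held only Tcf7, and 33.7% (24.6–43.8) and 33.2% (28.5–38.1) held both. Tox alone was found in 31.7% (22.8–41.7) and 41.8% (36.9–46.9), and neither in 4.95% and 8.16%. At 1000 UMIs a cell the Tcf7-only shares were 13.9% and 13.3%, so the difference between the libraries was not seen at equal depth, where 19 and 69 cells still held Tcf7. The unthinned medians over all CD8 T-like cells were 7124 and 5528 UMIs.

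The 2 ends of this split differed in genes known for naive and for exhausted cells, in both libraries. Ccr7, a lymph node homing receptor, was at 361 and 357 CPM in Tcf7-only cells and 149 and 119.6 CPM in Tox-only cells. Pdcd1 (PD-1) was at 57.6 and 14.7 CPM in Tcf7-only cells and 317 and 333 CPM in Tox-only cells. Havcr2 (TIM-3), another inhibitory receptor, went from 10.5 and 8.84 CPM to 240.3 and 166 CPM. Lef1 went from 1696 and 1727 CPM in Tcf7-only cells to 76.3 and 239 CPM in Tox-only cells.

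Gzmb and Entpd1 were lower in Tox-only cells of the library labelled KPC-shZEB1. Gzmb, a cytotoxic protease, was at 774 and 249 CPM in them and Entpd1 (CD39) at 511 and 237 CPM. Ccl5 was lower as well, at 2956 and 2411 CPM. Prf1 (perforin) was at 511 (428–605) and 478 (438–519) CPM and Ifng at 172 (125–230) and 166 (144–192) CPM, with overlapping intervals. The share of all genes that differ in these cells is not given. Slamf6, a receptor of stem-like cells, was at 27.9 and 117 CPM in cells with both Tcf7 and Tox.

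**Figure D4:**
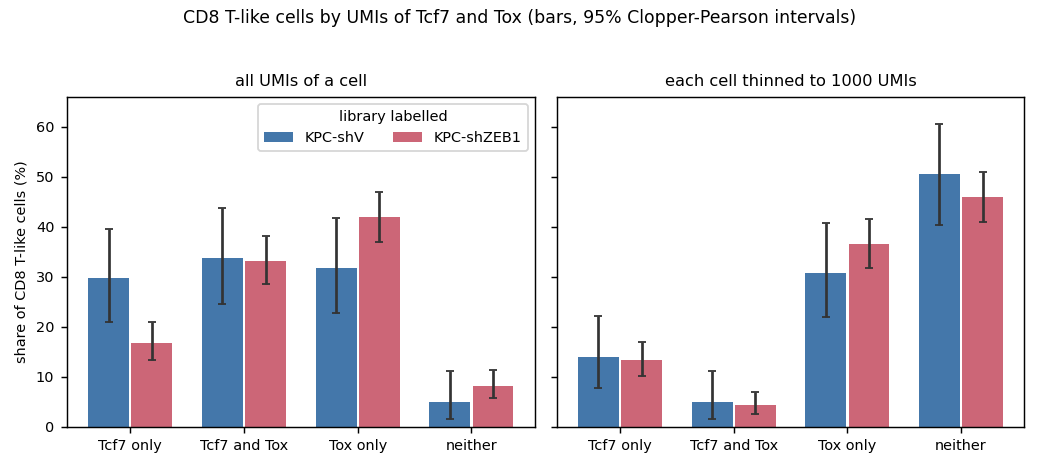
Share of CD8 T-like cells (percent, vertical axis) with UMIs of Tcf7 only, of both Tcf7 and Tox, of Tox only or of neither, in the library labelled KPC-shV (101 cells) and the library labelled KPC-shZEB1 (392 cells), with all UMIs and thinned to 1000 UMIs a cell. Bars are shares and lines 95% Clopper-Pearson intervals; Tcf7-only cells are at 29.7% and 16.8% with all UMIs and are at 13.9% and 13.3% when thinned.

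Tbx21, the gene of T-bet, was highest in NK-like cells at 320.1 (262–388) and 289.9 (257–325) CPM. Effector CD8 T-like cells held 193 (159–231) and 188 (168–211) CPM and Ly49 T-like cells 179 (140.2–224) and 204 (178–233) CPM, with overlapping intervals in each library. The Slc35f3-led cells came second in the library labelled KPC-shZEB1, at 214 (149–300) CPM, and their interval overlaps that of NK-like cells. In the other library they were 15 cells and held 3.79% of the Tbx21 UMIs of T and NK cells. The St8sia6-led cells, which had the highest Tcf7 and Lef1, held 0 and 1 UMIs of Tbx21 in 28 and 148 cells, so that the share of cells with a UMI was 0, which allows up to 10.7%, and 0.676%. Such a limit is on cells with a UMI and not on cells that express the gene. Treg-like cells were low, at 28.7 and 37.9 CPM. In naive CD8 T-like cells the levels were 40.1 and 13 CPM from 7 and 11 UMIs. Cells with Tcf7 held Tbx21 less often in CD8 T-like cells, with 43.8% and 23.5% against 62.2% and 48.0% of cells without Tcf7, and the intervals are apart in the library labelled KPC-shZEB1 alone. At 1000 UMIs a cell the shares were 5.26% and 10.1% with Tcf7 against 14.6% and 9.91% without, with overlapping intervals. Thinning cut the cells with a Tcf7 UMI from 64 and 196 to 19 and 69 and placed the rest among those without. It therefore cannot decide whether the difference depends on depth.

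Eomes, the other T-box gene, was highest in NK-like cells and low in most other subsets. NK-like cells held 149 (111–198) and 205 (178–235) CPM, with a ratio of 1.37 (0.999–1.91). Ly49 T-like cells held 57.9 (37.1–86.2) and 39.9 (29–53.6) CPM and effector CD8 T-like cells 45.3 (29.8–65.9) and 26.4 (19–35.6) CPM. No UMI was found in the IL-17 gamma-delta T-like cells of either library (0 of 35 and 0 of 58 cells, which allows up to 8.57% and 5.17% of cells with a UMI), and CD4 T-like cells held 0 and 4 UMIs. Cycling cells (9.17 and 23.1 CPM) and naive CD8 T-like cells (5.73 and 21.3 CPM) had intervals that overlap those of effector CD8 T-like cells in the library labelled KPC-shZEB1.

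The NK-like cells held a pair of sub-clusters with like Tbx21 and different Eomes, a split singled out after its values were seen. The sub-cluster led by Klra4 and Klra8 (35 and 126 cells) had 232 (172–307) and 287 (249–329.5) CPM of Eomes. The sub-cluster led by Zmat4 and Cntn1 (15 and 42 cells) had 0 and 2 UMIs of Eomes, in 0 and 2 cells. Tbx21 was at 318 and 283 CPM in the former and 324 and 307 CPM in the latter, and the intervals overlap. Zbtb16 was at 0 and 54 CPM in the Klra4-led cells and 85.3 and 198 CPM in the Zmat4-led cells, and Lef1 at 356 and 227 CPM and 42.7 and 58 CPM. Type 1 innate lymphoid cells are known to hold T-bet with little EOMES. NK-like cells with a Zbtb16 UMI held Eomes in 0 of 4 and 14 of 42, against 18 of 46 and 77 of 126 without. Over all NK-like cells, Eomes was found in 37.8% and 50.5% of cells with Tbx21 and 30.8% and 61.0% of cells without, with overlapping intervals.

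In effector CD8 T-like cells Eomes had a ratio of 0.582 (0.351–0.982), past 1.5-fold. The difference lay in the Gm156-led sub-cluster, with 56.4 (34–88.1) and 12.5 (6.82–20.9) CPM from 19 and 14 UMIs, while the Ifngas1-led one had 30.8 and 59.5 CPM from 8 and 28 UMIs. Tbx21 in the same Gm156-led cells was 226 and 214 CPM.

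Foxp3 was found mostly where the Treg markers were, and the subset was named without it. Treg-like cells held 176 (130.2–233) and 259 (219.8–302) CPM, a ratio of 1.47 (1.06–2.07), and 28 of 61 cells and 73 of 126 cells had a UMI. Treg-like cells made up 28 of 39 (71.8%) and 73 of 98 (74.5%) of the T and NK cells with a Foxp3 UMI. CD4 T-like cells held 0 and 1 UMIs in 77 and 249 cells, and NK-like and naive CD8 T-like cells held none in either library. Of Treg-like cells without a Foxp3 UMI, 26 of 33 and 39 of 53 held Il2ra (CD25), against 26 of 28 and 60 of 73 with one. Il2ra was among the markers that named this subset, so its presence there is no separate evidence of cell type.

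A small number of CD8 T-like cells also held Foxp3, and they were singled out after their values were seen. They were 9 of 101 and 9 of 392 cells with 16 and 17 UMIs, and all lay in the Gm156-led effector sub-cluster. Cd8a was found in 7 and 6 of the 9 cells and Cd4 in 1 and 1. Ctla4, a Treg checkpoint gene, was found in 9 and 8 of the 9, against 31 of 92 and 170 of 383 CD8 T-like cells without Foxp3. Il2ra was found in 6 and 7 of the 9, against 10 of 92 and 50 of 383. The cells without Foxp3 include the naive and Ifngas1-led cells. Ctla4 and Il2ra in Gm156-led cells without Foxp3 are not given, so the contrast may be one of sub-clusters. Their median depth was 6867 and 7168 UMIs, against 7208 and 5486 in the rest. Cycling cells held Foxp3 in 2 of 24 and 9 of 59 cells.

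Gata3, the type 2 factor, was highest in ILC2-like cells at 1097 (797–1472) and 1403 (1166–1674) CPM, in 7 of 7 and 18 of 19 cells. Treg-like cells were the highest of the larger subsets at 564 (479–659) and 473 (419.7–531) CPM, a ratio of 0.839 (0.688–1.03). CD4 T-like cells held 173 (136–216) and 157 (136–179.6) CPM. Cycling cells held 101 and 87 CPM, IL-17 gamma-delta T-like cells 74.5 and 63.2 CPM, Ly49 T-like cells 57.9 and 47.2 CPM and Slc35f3-led cells 47.1 and 101 CPM, the last from 3 and 16 UMIs. The Cd40lg-led sub-cluster of CD4 T-like cells had 240.1 and 135 CPM (ratio 0.560, 0.388–0.822) and the Hs6st3-led one 128 and 184 CPM (ratio 1.44, 0.972–2.19).

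Gata3 and Foxp3 lay in the same cells by way of the Treg-like subset. Of T and NK cells with a Foxp3 UMI, 53.8% (37.2–69.9) and 59.2% (48.8–69.0) held Gata3, against 27.5% (23.3–32) and 23.8% (21.6–26.2) of the rest. Within Treg-like cells the shares were 60.7% and 64.4% with Foxp3 and 69.7% and 49.1% without, with overlapping intervals.

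Bcl6 was spread over the T and NK subsets, from 64.2 to 246 CPM and from 81.3 to 215 CPM in subsets of at least 20 cells. It was highest in Ly49 T-like cells at 246 (201–299) and 215 (189–244) CPM, and CD4 T-like cells, where follicular helper cells would fall, held 177 (140.3–221) and 178 (156–202) CPM. St8sia6-led cells held 169 and 167 CPM, Treg-like cells 129 and 127 CPM and naive CD8 T-like cells 97.5 and 94.6 CPM. The subsets past 1.5-fold did not move in the same direction. IL-17 gamma-delta T-like cells had 165 (112–234) and 81.3 (53.6–118) CPM (ratio 0.493, 0.283–0.853). NK-like cells had 97.6 (66.7–138) and 162 (138–188) CPM (ratio 1.66, 1.13–2.50) and cycling cells 64.2 (42.6–92.7) and 99.8 (83.1–119) CPM (ratio 1.55, 1.03–2.43). In CD8 T-like cells the ratio was 0.729 (0.570–0.937), and in the Gm156-led effector sub-cluster 0.402 (0.277–0.585), from 157 (118–206) and 63.2 (49.4–79.8) CPM. The granulocyte markers summed to 1988 and 468 CPM in effector CD8 T-like cells. The part of granulocyte RNA in these Bcl6 levels was not tested. Over all effector CD8 T-like cells the Bcl6 ratio was 1.37 with each library clustered alone.

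Zbtb16, the gene of PLZF, was concentrated in a few cells. IL-17 gamma-delta T-like cells held 2119 (1916–2337) and 1783 (1642–1932) CPM in 32 of 35 cells and 54 of 58 cells, and 79.3% and 60.3% of all Zbtb16 UMIs of T and NK cells. These cells were 7.53% and 3.96% of the T and NK cells. The Slc35f3-led subset, with Il4 among its leading genes, followed with 769 (569–1016) and 467 (366–586) CPM (ratio 0.607, 0.417–0.890). ILC2-like cells held 399 and 159.7 CPM from 16 and 14 UMIs. Effector and naive CD8 T-like cells held 1 and 18 UMIs together.

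In NK-like and Ly49 T-like cells Zbtb16 was low, and higher in the library labelled KPC-shZEB1. NK-like cells had 30.5 (14.6–56.1) and 96.3 (78–118) CPM (ratio 3.16, 1.65–6.80), in 4 of 50 cells and 42 of 168 cells. Ly49 T-like cells had 45.8 (27.6–71.6) and 103 (84.5–123) CPM (ratio 2.24, 1.37–3.85), which was 0.662 with each library clustered alone. In CD4 T-like cells there were 3 and 46 UMIs, and 26 of the 46 came from 1 cell.

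Other factors of lymphocyte identity were counted in the same way. Of 35 further transcription factors on a fixed list, 34 had enough UMIs in T and NK cells, 1 was higher and 2 were lower past 1.5-fold, with a median log2 ratio of −0.04, where 10.0% of all genes passed in either direction and their median was 0.05. Myb, a factor of stem-like T cells, had 42.9 and 86 CPM, a ratio of 2.01 (1.67–2.43). Among the lower was Id3, with a ratio of 0.532.

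Genes known for each factor's programme were counted in T and NK cells, where 10.0% of all genes passed 1.5-fold. The lists are short, and nothing is read from their counts. Of 9 genes tied to Tcf7 and Lef1, 1 was higher, Slamf6, with 33.5 and 65.2 CPM, a ratio of 1.95 (1.58–2.43). Of 7 tied to Tox none passed 1.5-fold, and of 10 tied to Tbx21 and Eomes 1 was lower, Gzmb, with 228 and 116 CPM, a ratio of 0.510 (0.463–0.562). Of 8 tied to Foxp3 2 were lower, Itgae and Il10. Of 6 measured of the 7 tied to Gata3, the type 2 cytokine gene Il4 was higher, with 7.15 and 16.6 CPM, a ratio of 2.33 (1.48–3.83), and Il5 lower, with 21.8 and 7.87 CPM, a ratio of 0.362 (0.255–0.513). CD4 T-like cells held 2 and 86 of the 22 and 148 Il4 UMIs. In the library labelled KPC-shZEB1 these 86 came from few cells, 2 of 10 with a Zbtb16 UMI and 6 of 239 without. Of 4 measured of the 5 tied to Bcl6, 1 was higher, the follicular helper cytokine gene Il21, with 14 and 22.7 CPM, a ratio of 1.63 (1.17–2.32). Of 5 tied to Zbtb16 2 were lower, Cd163l1 and Il17a, the latter with 100.1 and 19.5 CPM, a ratio of 0.194 (0.160–0.235).

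The genes most like each factor over subsets and libraries were listed as a description, by Pearson correlation of log2(CPM + 1) over 19 subset and library points with at least 20 cells, among 10806 genes. The points share libraries and cell depth, and the values of a subset in both libraries are not independent of each other. Lef1 was most like Klf3 (0.95), Rps27 and Ablim1 (0.93 each), and Tcf7 like A630014C17Rik (0.93), Ikzf1 (0.90) and Hid1 (0.83). Tbx21 was most like Il2rb (0.94), the IL-15 receptor chain, AW112010 and Chsy1 (0.92 each), and Zbtb16 like Pde5a (0.93), Gcnt2 and Slc38a1 (0.90 each). Foxp3 was most like Ky (0.90), Cd80 (0.88) and Phlpp1 (0.86), Tox like Sdcbp2 (0.90), Lrba (0.89) and Mxi1 (0.88), and Gata3 like Grb2 (0.89), Odc1 (0.88) and Rel (0.87). Eomes had Gatad2a (0.88), Slc30a9 (0.87) and Plekha2 (0.84). Bcl6 had the weakest likeness, with Atad2b at 0.79, Tut7 at 0.76 and Zc3h7a at 0.74. Between the factors, Tcf7 and Lef1 correlated at 0.61, Eomes and Tbx21 at 0.64 and Foxp3 and Tox at 0.72, while Tcf7 ran against Gata3 (−0.79), Foxp3 (−0.73) and Tox (−0.66).

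Outside the T and NK cells most factors were low, and Bcl6 was not. T and NK cells held 3.33% and 10.7% of all Bcl6 UMIs but 85.5% and 80.6% of Lef1 UMIs. Granulocyte-like cells held 298 (291–306) and 275 (267–284) CPM of Bcl6 in 47.6% and 45.1% of cells, more than T and NK cells in both libraries. Within them the cluster led by Siglecf and Abca13 was at 510.4 and 339.9 CPM and the one led by Retnlg and Rdh12 at 194 and 174 CPM. B-like cells held 146 and 136 CPM and dendritic-like cells 128 and 106 CPM. In acinar-like cells Bcl6 was at 44.4 (17.8–91.5) and 226 (196–259) CPM from 7 and 206 UMIs in 21 and 261 cells.

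Zbtb16 was also present in stroma. Fibroblast-like cells had 19 (16.5–21.7) and 77.7 (72.5–83.1) CPM in 27.8% and 57.4% of cells, a ratio of 4.09 (3.51–4.79). Endothelial-like cells had 8.53 (5.46–12.7) and 39.8 (31.1–50.1) CPM, a ratio of 4.66 (2.90–7.74). Macrophages led by Fcna and Lyve1 had 7.93 and 33.8 CPM. In tumour-like cells the level was 2.73 and 8.53 CPM, and 80 of the 180 UMIs of the library labelled KPC-shZEB1 came from 26 cells led by Dcdc2a and Erbb4, a split seen after the fact. T cell marker RNA in fibroblast-like cells, summed over 8 markers, was at 21.7 and 50.3 CPM, against 2938 and 2762 CPM in T and NK cells, where Zbtb16 itself was at 163 and 110.3 CPM.

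In these other classes the factors were often higher in the library labelled KPC-shZEB1, and so was T cell RNA. Granulocyte-like cells had 5 of 6 factors with enough UMIs higher by 1.5-fold and none lower (25.1% of all genes passed in either direction, with a median log2 ratio of 0.27), and monocyte-macrophage-like cells had 5 of 7 higher (10.2%). Tumour-like cells had 4 of 8 higher (12.3%), fibroblast-like cells 3 of 6 (11.1%) and endothelial-like cells 1 of 3 (14.3%). In granulocyte-like cells Lef1 was at 2.10 and 9.13 CPM, in 0.699% and 2.53% of cells, and Tcf7 at 1.58 and 3.94 CPM. Beside these, all 8 T cell markers were higher past 1.5-fold in granulocyte-like and in monocyte-macrophage-like cells, with sums of 20.4 and 59.2 CPM and of 17.3 and 52.7 CPM. T and NK cells gave 3.04% and 7.47% of all kept UMIs. The part of T cell RNA in the factor levels of these classes was not tested.

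**Figure D5:**
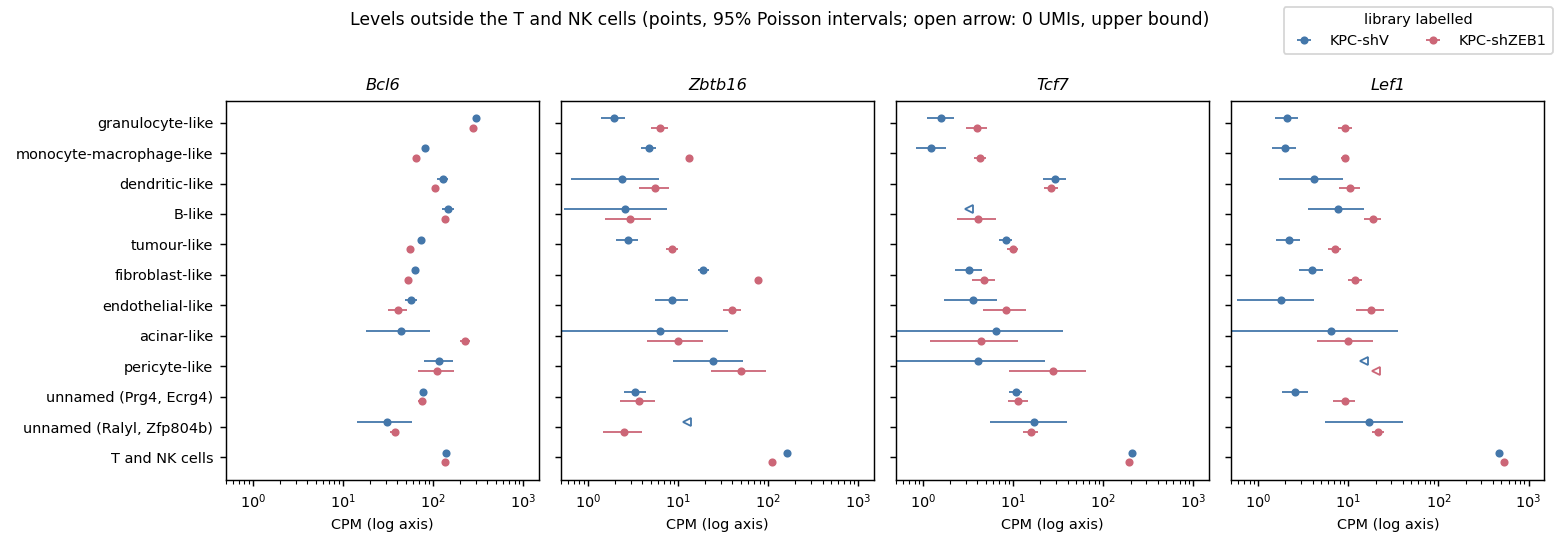
Level (CPM, log axis) of Bcl6, Zbtb16, Tcf7 and Lef1 in the other cell classes, with T and NK cells as the last row. Blue is the library labelled KPC-shV and red the library labelled KPC-shZEB1, with 95% Poisson intervals; open arrows are upper bounds for 0 UMIs. Bcl6 is at 298 and 275 CPM in granulocyte-like cells, above T and NK cells, and Zbtb16 rises from 19.0 to 77.7 CPM in fibroblast-like cells.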

How the data were processed

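Single-cell RNA was measured in 2 libraries, 1 per group, with 10x 3' chemistry. The deposited matrices are raw UMI counts that the authors obtained from Cell Ranger 7.0.1 on mm10, and whether intronic reads were counted is not given in the sources used here. A barcode was kept if it had at least 500 genes, between 1000 and 60000 UMIs and no more than 15% mitochondrial UMIs (11713 of 12594 and 12447 of 13271). Scrublet (scanpy 1.11.5) scores above 0.2 removed 315 and 343 more, a threshold set after the scores were seen, since the automatic one removed 0 and 265.

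Cells of both libraries were clustered together (3000 variable genes, 30 components, 20 neighbours, Leiden method of leidenalg 0.10.2, resolution 1), with the 9 factors and 35 related factors left out of the variable genes. T and NK cells were clustered again (2000 genes, 20 components, resolution 1.5) into 16 sub-clusters, of which 2 with 18 cells in all were left out. A sub-cluster took a name when at least 3 of its markers were each found in at least 10% of its cells and its first marker in 20%. CPM, exact Poisson, Clopper-Pearson and conditional ratio intervals (95%) were computed with scipy 1.17.1, and beside a share of 0 stands the share that 3 cells would give. Intervals cover counting error only, not mice, and no test was made. The ratio script was tested on simulated T and NK cells: it called 3.15% of 10747 unchanged genes, 98.0% of genes changed 2-fold and all changed 3-fold. The simulated counts held Poisson error only, with no differences among cells, subsets or mice. The 3.15% is therefore not a rate of false calls for these libraries. The factors, lists and markers were chosen with earlier results of these data known. Named genes are the 9 factors, at most the 4 largest and 4 smallest listed genes past 1.5-fold in T and NK cells, and the 3 genes most like each factor. Other genes are named as markers or where a count of 5 or fewer needed them. Positions come from GENCODE on GRCm38, which held 32235 of 32285 gene identifiers, and promoters from RefSeq on GRCm38.p6. Promoters of Tox and Zbtb16 were not analysed here. Some items are not reported here. Alternatives covered doublets, cell filters, averaging, clustering, free RNA, top cells, scaling, make-up, gates, thinning and fold.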

Additional observations from a re-analysis of the deposited data

Results flagged for a closer look

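With the library labelled KPC-shZEB1 over the other, Bcl6 was lower in IL-17 gamma-delta T-like cells, with a ratio of 0.493, and higher in NK-like cells, with 1.66, and cycling cells, with 1.55. These ratios lie on opposite sides of 1 with intervals that leave out 1, and the difference between the subsets was not tested.

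The barcodes that the filters and the doublet score removed, 1196 and 1167, were outside every comparison above. Several factors stood higher there with the same division. Ratios were 1.69 for Tcf7, 2.73 for Lef1, 2.11 for Tox, 2.43 for Tbx21, 2.83 for Zbtb16 and, short of 1.5-fold, 1.45 for Gata3. Eomes had 1.04, Foxp3 1.62 (0.842–3.16) and Bcl6 0.912 (0.854–0.974). The share of all genes past 1.5-fold in these barcodes is not given. The share of T and NK cells among kept cells was 4.08% and 12.1%.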

How the results depend on the processing

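No paired analysis was possible because each group is 1 library, and for the same reason no replicate could be left out. With the 5 cells that held the most UMIs of a gene removed, the ratios in T and NK cells moved to 1.22 for Lef1, 0.975 for Tox, 1.43 for Eomes and 0.806 for Zbtb16. At the same subset make-up in both libraries they were 0.805 for Tcf7, 0.910 for Lef1, 1.00 for Tox, 0.963 for Gata3 and 0.971 for Zbtb16. Without the naive CD8 T-like and St8sia6-led cells, an alternative chosen after seeing the data, the Lef1 ratio was 0.835. Thinned to 1000 UMIs, CD8 T-like cells held Tcf7 only in 13.9% and 13.3%, both in 4.95% and 4.34%, Tox only in 30.7% and 36.5% and neither in 50.5% and 45.9%. Ratios past 1.5-fold that turned around, for reasons not tested, were Zbtb16 in Ly49 T-like cells (0.662), Lef1 in Treg-like cells (1.04) and Tcf7 in effector CD8 T-like cells (10.3) with each library clustered alone, Tcf7 in effector CD8 T-like cells (1.90) and Tox in naive CD8 T-like cells (0.867) with the factors among the variable genes, Lef1 in cycling cells without the top 5 cells (2.78), and Zbtb16 in CD4 T-like and Treg-like cells gated on Cd4 UMIs (0.553). Ratios short of 1.5-fold also crossed 1, among them Lef1 (3.42) and Bcl6 (1.37) in effector CD8 T-like cells, Tox in CD4 T-like cells (1.91) and Eomes in NK-like cells (0.771) with each library clustered alone. Of the ratios, 106 in all T and NK cells stayed within the interval of the main value and 10 moved, and in their subsets 596 stayed, 73 moved and 7 turned around. These totals pool unlike settings and do not measure stability. With no upper UMI limit all 77 ratios of both kinds stayed. With each library clustered alone 50 stayed, 19 moved and 3 turned around. Without the 5 top cells 46 stayed, 28 moved and 1 turned around. Small subsets and low UMI counts limit these ratios.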
